A study of Mus musculus with 100 samples.

Results

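The genes described are 10 that the visceral endoderm uses to take up proteins and to secrete them: the receptors Cubn, Amn and Lrp2, the adaptor Dab2, and the secreted proteins Afp, Ttr, Rbp4, Trf, Spink1 and Pga5. They were selected by name from 23109 gene-level entries, with their levels across the lineages and their difference in the extraembryonic endoderm cultures already known, so those levels and that difference are described without a test. All 10 were present in the tables of the 37 RNA libraries analysed, which fall into 18 groups. The study asks what the histone methyltransferases MLL3 (Kmt2c) and MLL4 (Kmt2d) contribute to early mouse development. The cultured cells are all labelled Mll3-/-. The reference, flox, is Mll3-/-;Mll4flox/flox, and KI is Mll3-/-;Mll4KI/KI, represented by the 2 clones 27 and 48. They were sampled as embryonic stem cells (ESCs, day 0), as embryoid bodies (EBs, aggregates left to differentiate in suspension) at days 4 and 10, on a neural protocol with retinoic acid at days 8 (progenitor stage) and 16 (neuron stage), as trophectoderm-like cultures at day 6 after induction of a tagged CDX2 transgene by doxycycline, and as extraembryonic endoderm cultures grown for 5 days with activin A and retinoic acid. KI embryos are Mll3flox/KI;Mll4flox/KI;Sox2-Cre and controls are Mll3flox/KI;Mll4flox/+;Sox2-Cre, taken whole at E8.5 and E9.5. Sox2-Cre is active in the epiblast and largely not in the visceral endoderm, and the labels do not say whether yolk sac was kept with an embryo.

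The visceral endoderm is an absorptive and secretory epithelium that surrounds the early mouse embryo and later lines its yolk sac. It takes up maternal proteins, vitamins and lipids through cubilin (Cubn), which has no membrane anchor and reaches the surface with amnionless (Amn), and through megalin (Lrp2), a giant membrane-spanning receptor. Dab2 links these receptors to clathrin. The same cells secrete plasma carriers before the liver does: alpha-fetoprotein (Afp), transthyretin (Ttr, which binds thyroid hormone and retinol-binding protein), retinol-binding protein (Rbp4) and transferrin (Trf, which carries iron). Spink1 encodes a trypsin inhibitor and Pga5 a pepsinogen, the precursor of a gastric protease.

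The 250 bases before the start of 4 members are shown because these genes took different courses in the extraembryonic endoderm cultures: Cubn, Amn and Afp were almost lost in KI, and Lrp2 was not lower. They were read from the RefSeq promoter table (GRCm38.p6), which held entries for 6 of the 10 members, all but Ttr, Trf, Spink1 and Pga5. They run 5′ to 3′ on the strand of the gene, and capitals mark the only match found in them, a GTTAAT half-site of the kind HNF1 proteins bind.
Cubn, chr2:13491877-13492126, - strand: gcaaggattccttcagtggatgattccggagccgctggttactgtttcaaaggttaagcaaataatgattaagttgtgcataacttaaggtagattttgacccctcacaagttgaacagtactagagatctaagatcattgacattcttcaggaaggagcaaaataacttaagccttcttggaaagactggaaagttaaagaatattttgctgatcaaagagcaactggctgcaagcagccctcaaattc
Amn, chr12:111270846-111271095, + strand: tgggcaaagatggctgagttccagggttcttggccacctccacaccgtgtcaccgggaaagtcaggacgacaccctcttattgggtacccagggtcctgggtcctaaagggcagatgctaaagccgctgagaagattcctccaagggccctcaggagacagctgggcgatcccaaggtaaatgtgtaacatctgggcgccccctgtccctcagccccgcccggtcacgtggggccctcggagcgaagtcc
Afp, chr5:90490464-90490713, + strand: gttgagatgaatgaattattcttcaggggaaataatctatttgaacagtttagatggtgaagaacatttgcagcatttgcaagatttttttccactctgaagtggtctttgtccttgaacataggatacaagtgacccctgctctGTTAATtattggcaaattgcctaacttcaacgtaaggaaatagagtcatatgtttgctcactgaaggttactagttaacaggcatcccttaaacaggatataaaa
Lrp2, chr2:69586030-69586279, - strand: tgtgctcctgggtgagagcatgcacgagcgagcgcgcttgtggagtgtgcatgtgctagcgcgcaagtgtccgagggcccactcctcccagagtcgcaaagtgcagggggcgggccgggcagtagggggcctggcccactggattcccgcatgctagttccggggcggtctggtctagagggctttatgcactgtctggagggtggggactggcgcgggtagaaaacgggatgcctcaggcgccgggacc
Both strands were searched for the GATA letters AGATAA and TGATAA, FOXA TGTTTAC, the HNF1 half-site GTTAAT and HNF4 CAAAGTCCA. Of 32851 promoter stretches of this length, 16.6% held a GATA match, 3.17% the FOXA letters, 6.43% the HNF1 half-site and 0.384% the HNF4 letters. Of the 8 stretches that the table held for members, 1 held a GATA match (Dab2) and 1 the FOXA letters (Rbp4). The HNF1 half-site was in 2 (Dab2 and Afp) and the HNF4 letters in 0. Those of Dab2 and Rbp4 are not shown. The Afp match lies 105 to 100 bases before the start. The Cubn and Afp stretches were poor in G and C (39.6% and 36.0%, with 2 and 1 CpG), against a median of 52.4% and 6 CpG over all promoters. Those of Amn and Lrp2 were rich (61.2% and 66.4%, with 11 and 18 CpG), so the 3 members that were almost lost differed in base composition.

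Gene-level totals ran from 18.9 to 59.9 M reads per library, and a count of 0 allows up to 3 reads, or 0.05 to 0.159 CPM (counts per M gene-level reads). Markers went with most of the labelled lineages. The summed ESC markers were 3442 to 3994 CPM in ESCs, and the summed neuron markers 2120 to 3613 CPM at neural day 16. The summed trophoblast list did not separate the 2 extraembryonic cultures, at 3151 to 5483 CPM in trophectoderm and 3108 to 4536 CPM in extraembryonic endoderm. Krt8 and Krt18 made up most of these sums. Cdx2, Elf5, Tfap2c and Hand1 had higher means in trophectoderm than in extraembryonic endoderm for both genotypes, and Gata3 and Eomes did not. Tfap2c, for example, had 113 CPM in flox and 258 CPM in KI trophectoderm, against 4.96 and 22.2 CPM in extraembryonic endoderm. The 9 visceral endoderm markers summed to 660 and 626 CPM in flox extraembryonic endoderm but to 11.4 and 10.0 CPM in KI, with Apoa1 and Apoa4 at 0 in both KI libraries, so the KI cultures go against the name for the visceral type. The 7 core markers of extraembryonic endoderm also summed lower in KI (526 and 556 CPM in flox, 179.6 and 196 CPM in KI), as did the parietal endoderm markers (9566 to 9751 CPM in flox, 6766 to 6982 CPM in KI). Kmt2d reads cannot check the KI allele, and ran from 149 to 334 CPM over all groups. Kmt2c had 27.6 to 99.4 CPM in the cultures labelled Mll3-/- and 33.2 to 63.2 CPM in embryos, so gene-level reads do not show the Mll3 knockout either.

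Flox extraembryonic endoderm was the group with the highest mean CPM for Cubn, Amn, Spink1 and Pga5, KI embryoid bodies at day 10 for Dab2, Ttr and Rbp4, KI extraembryonic endoderm for Lrp2, KI embryos at E9.5 for Afp, and control embryos at E8.5 for Trf. Cubn had a mean of 451 ± 1.46 CPM (SD, n = 2) in flox extraembryonic endoderm and 50.5 ± 55.3 CPM (SD, n = 3) in E8.5 controls, and stayed under 5 CPM in every ESC, embryoid body, neural and trophectoderm library. Lrp2 was the broadest member. It was at 5.90 to 6.85 CPM in ESCs, at 259 to 322 CPM in EBs at day 4, and at 737 and 730 CPM in flox trophectoderm, a level close to the 755 and 757 CPM of flox extraembryonic endoderm.

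**Figure D1:**
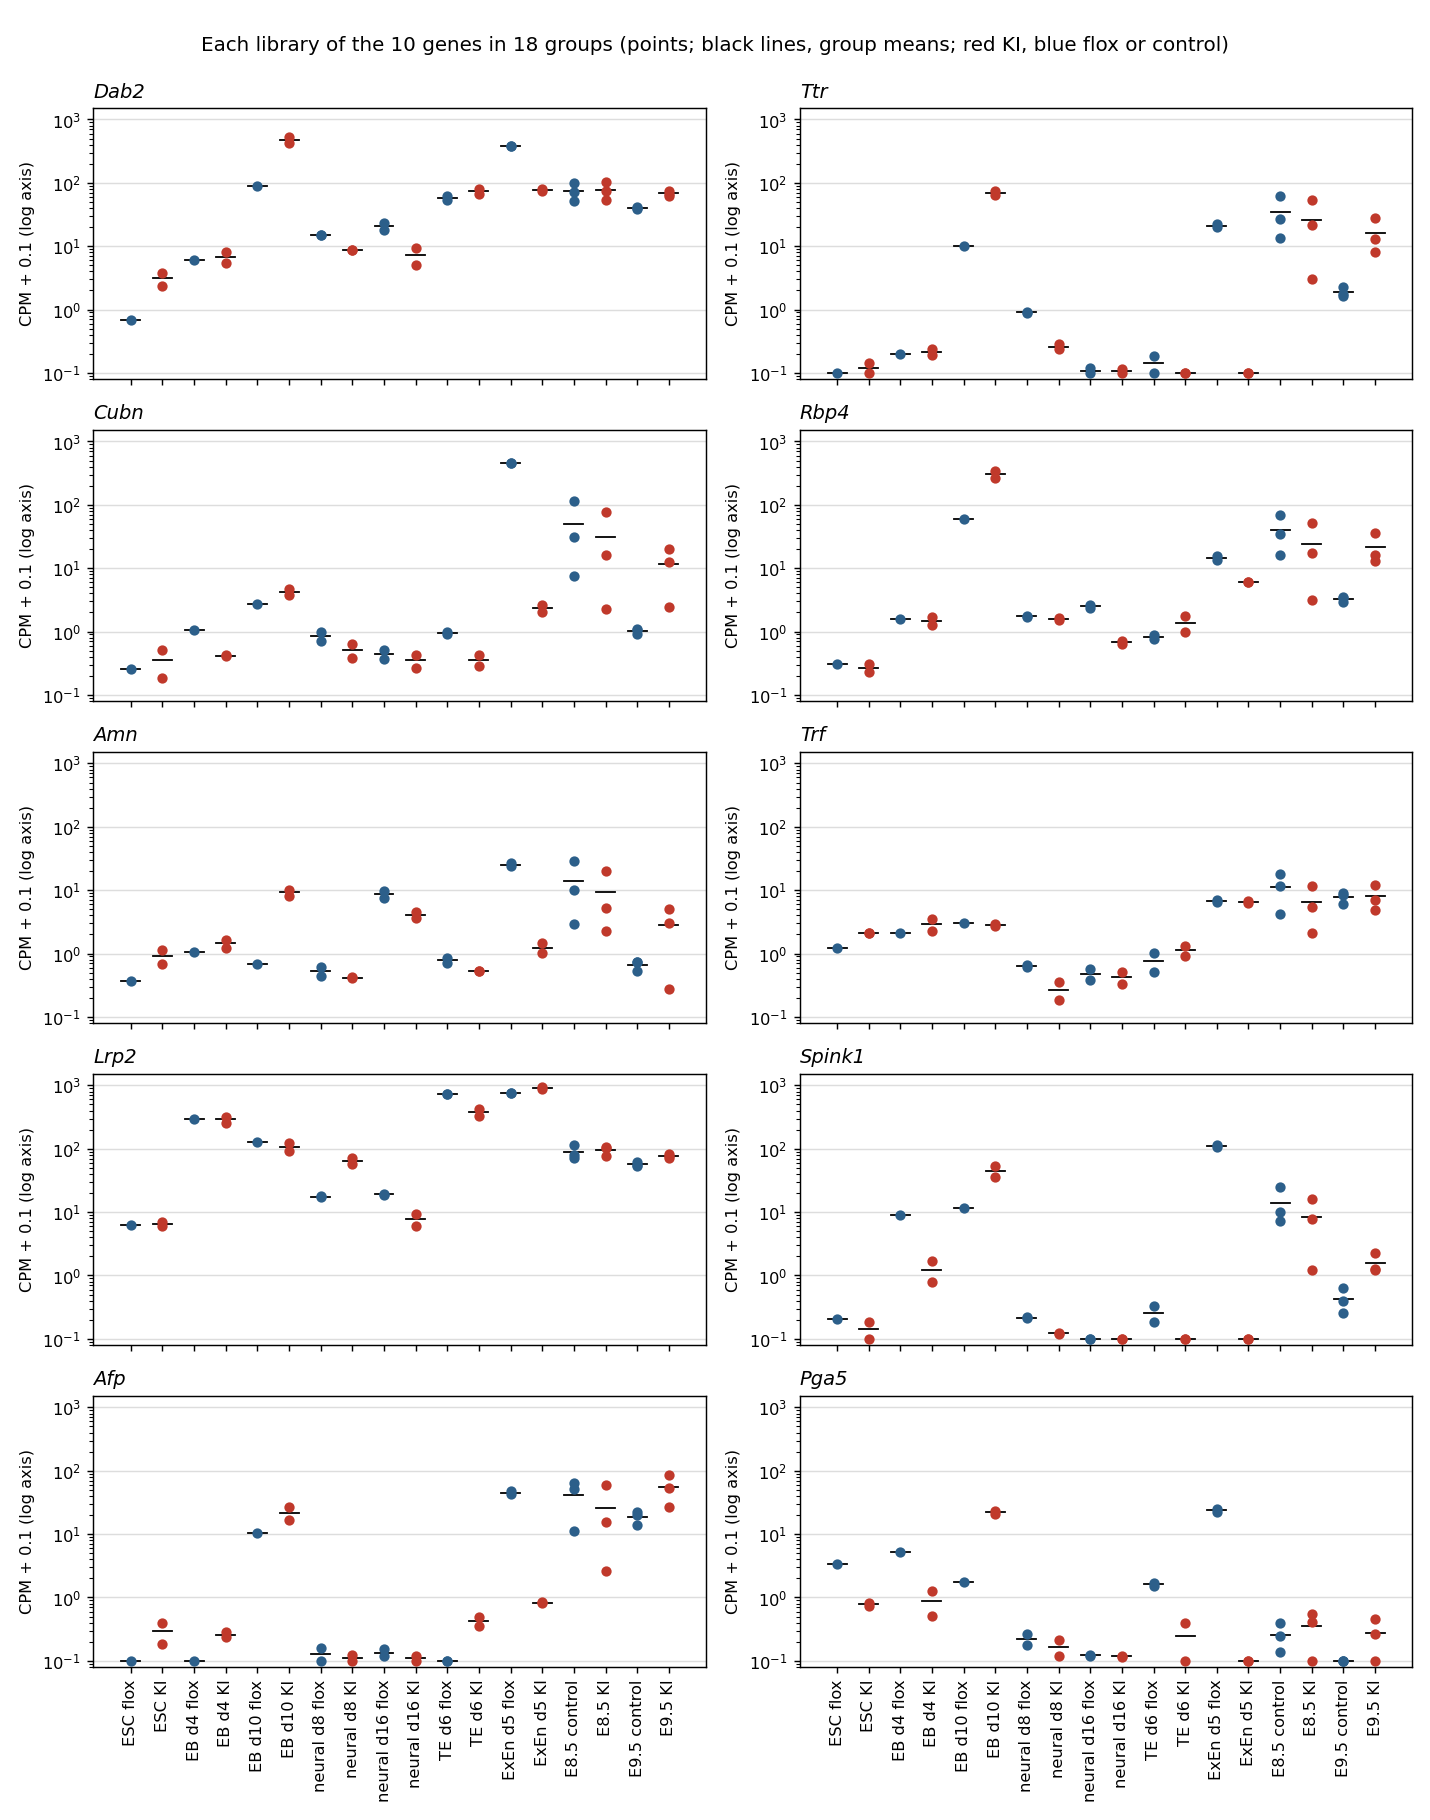
Level of each of the 10 genes in every library of the 18 groups; the y axis is CPM with 0.1 added, on a log axis, points are libraries, black lines are group means, red is KI and blue is flox or control. Lrp2 is high in both extraembryonic cultures, whereas Cubn exceeds 100 CPM in flox extraembryonic endoderm and in 1 control embryo at E8.5, at 113 CPM.

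Per length, on the deposited RPKM scale, the secreted inhibitor Spink1 led the members in flox extraembryonic endoderm with 209 ± 11.1 RPKM (SD, n = 2). Dab2 followed at 67.9 ± 0.202 RPKM, then Lrp2 at 38.8 ± 0.119 RPKM and Cubn at 31.6 ± 0.141 RPKM. These neighbours lay further apart than their spread. Afp (17.0 ± 1.20 RPKM), Ttr (13.7 ± 0.998 RPKM), Pga5 (13.2 ± 0.767 RPKM), Rbp4 (12.3 ± 0.961 RPKM) and Amn (11.8 ± 0.957 RPKM) formed a lower tier, in which neighbours from Ttr down to Amn lay no further apart than the larger of their SDs. Trf was lowest at 2.24 ± 0.116 RPKM. The order differed in E8.5 controls, where Rbp4 (32.8 ± 22.1 RPKM, n = 3), Spink1 (25.5 ± 17.8 RPKM) and Ttr (21.6 ± 15.9 RPKM) had the highest means, within overlapping spreads. Cubn averaged 3.45 ± 3.78 RPKM there, and lay above Trf and Lrp2 in replicate 1 (7.72 against 5.83 and 5.82 RPKM) but below both in replicates 2 and 3.

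In KI extraembryonic endoderm both chains of the cubilin receptor, Afp, Ttr, Spink1 and Pga5 were almost gone, Dab2 and Rbp4 were lower but present, and Lrp2 and Trf differed little. Cubn had 450.5 and 452.5 CPM in the flox libraries and 1.97 and 2.53 CPM in the KI clones, a 201-fold lower mean (log2 fold change -7.68, SE 0.11). Amn, its membrane partner, had 23.7 and 26.6 CPM in flox and 1.36 and 0.909 CPM in KI, 22.2-fold lower (-4.49, SE 0.25). Both chains of the cubilin complex were thus low in KI, with no overlap between the groups. Dab2 had 388 and 385 CPM in flox and 75.2 and 79.1 CPM in KI, 5.01-fold lower (-2.35, SE 0.09). Lrp2 went the other way, with 755 and 757 CPM in flox and 892 and 936 CPM in KI (log2 fold change 0.24, SE 0.10). In bulk samples, fewer cells of a type and less RNA per cell cannot be told apart.

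Of the carriers, Afp had 47.0 and 42.5 CPM in flox and 0.751 and 0.707 CPM in KI, a 61.4-fold lower mean (log2 fold change -5.96, SE 0.23). Ttr had 22.1 and 19.9 CPM in flox and 0 reads in both KI libraries, so that KI was at least 144-fold lower against the limit of 3 reads per library. Neither carrier overlapped between the genotypes. Rbp4 had 15.2 and 13.6 CPM in flox and 5.86 and 5.96 CPM in KI, 2.44-fold lower (-1.31, SE 0.25). Trf had 6.83 and 6.33 CPM in flox and 6.29 and 6.62 CPM in KI, and its groups overlapped (-0.06, SE 0.30). The trypsin inhibitor Spink1 had 107 and 115 CPM in flox and 0 reads in KI, at least 762-fold lower. The pepsinogen Pga5, with 24.5 and 22.5 CPM in flox, also had 0 reads in KI, at least 161-fold lower. In all, 8 of the 10 members were at least 2-fold lower in every KI library than in every flox library (0.5 CPM added), where 3.37% of the 14177 genes with at least 1 CPM in a compared library were; since the members were selected on this contrast, nothing is read from that share. The threshold fell between Rbp4, whose mean log2 ratio was -1.21, and Trf, at -0.03.

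**Figure D2:**
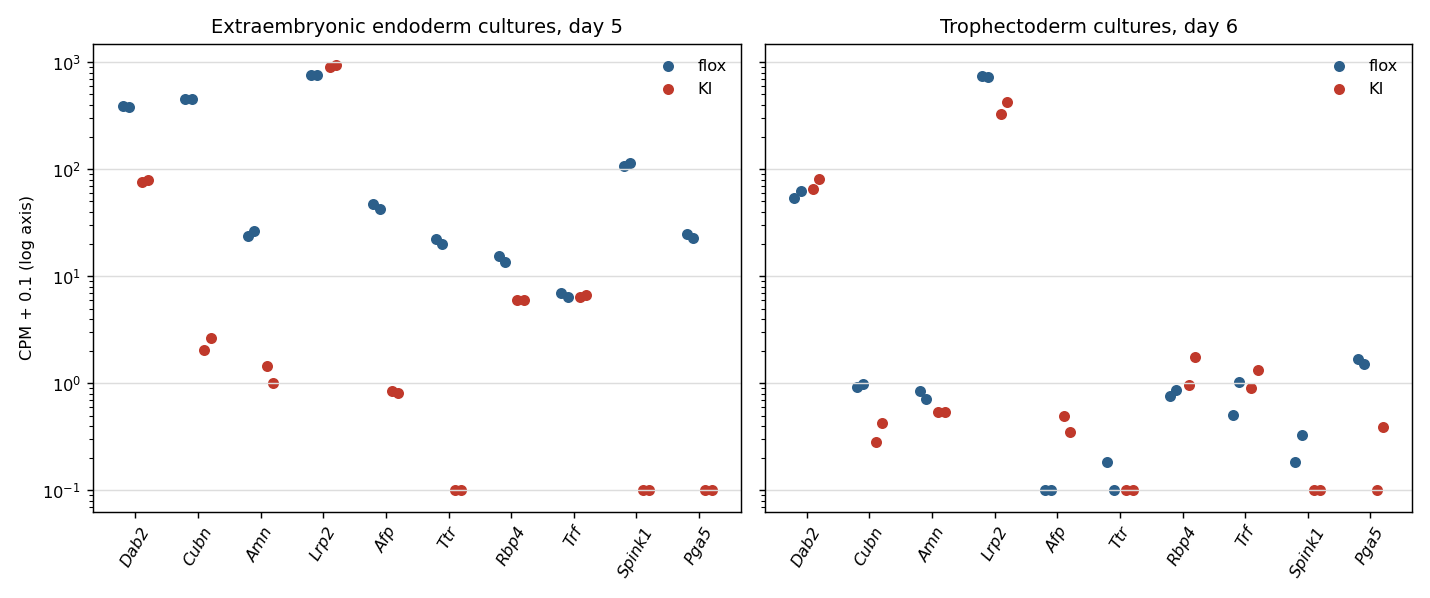
The 10 members in extraembryonic endoderm at day 5 (left) and trophectoderm at day 6 (right); the y axis is CPM with 0.1 added, on a log axis, blue points are flox and red points KI libraries. On the left Ttr, Spink1 and Pga5 have 0 reads in both KI libraries, while Lrp2 and Trf lie beside their flox values.

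Genes of the other lists differed in direction in these cultures. The median log2 fold change was -0.09 over 22 genes of clathrin coats, endosomes and lysosomes and -0.03 over 8 receptor genes related to Lrp2, and 0.00 over all genes. Of 16 other plasma protein genes, 7 passed the low-count filter shared with trophectoderm, and 6 of these had a lower mean in KI, mostly at low levels. The protease inhibitor Serpinf2 had a mean of 3.77 CPM in flox and 0 in KI, the fibrinogen chain Fgb 2.07 CPM and 0, and prothrombin (F2) 0.842 and 0.0938 CPM. At least Fgb passed only through flox extraembryonic endoderm. The filter thus partly sets this direction, and nothing is read from the count of 6. Gc, the vitamin D binding protein, was the one with a higher mean in KI, at 1.07 CPM in flox and 2.39 CPM in KI. The largest departures in the uptake list were Lgmn, a lysosomal protease (377 CPM in flox and 69.1 CPM in KI), Myo6, the motor that moves coated vesicles inward (119 and 33.4 CPM), and Lrpap1, the chaperone of Lrp2 and related receptors (314 and 128 CPM). Receptors of the cargo differed in direction: Slc40a1, the iron exporter, had 61.6 CPM in flox and 141 CPM in KI, while Folr1, a folate receptor, had 79.7 and 25.98 CPM and Stra6, the receptor for Rbp4, had 27.4 and 7.27 CPM. Hnf4a, a transcription factor of the visceral endoderm and liver, was at 25.9 and 27.1 CPM in flox and at 0.0938 and 0.101 CPM in KI. It is 1 of the 7 core genes of extraembryonic endoderm, all of which had a lower mean in KI, with a median log2 fold change of -2.78. Of the transcription factors among them, Gata4 had a mean of 176 CPM in flox and 16.6 CPM in KI, Sox17 76.5 and 11.3 CPM, and Gata6 110 and 91.0 CPM. The parietal endoderm list had a median of -0.50. The part of the endoderm type in the members' values was not tested.

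Trophectoderm cultures, in which most members are near their detection limit, gave a partly opposite picture for Lrp2 and Dab2. These cultures were filtered and fitted together with the extraembryonic endoderm cultures, and Afp, Ttr and Spink1 passed the low-count filter only through flox extraembryonic endoderm, where they are high. Of the 7 members that also pass in the trophectoderm libraries alone, 3 were lower and 1 higher in KI by edgeR's quasi-likelihood test (adjusted p under 0.05), where 50.9% of all 15532 genes tested were called. The same 4, Lrp2, Cubn, Pga5 and Dab2, were called in a fit of the trophectoderm libraries alone, where 51.7% of genes were. Lrp2 fell from 737 and 730 CPM to 330 and 429 CPM (log2 fold change -0.92, SE 0.10, adjusted p = 0.000247 by edgeR), and both KI clones were below both flox libraries. Dab2 rose from 53.9 and 62.9 CPM to 65.4 and 81.0 CPM (0.36, SE 0.09, adjusted p = 0.0066 by edgeR). Cubn fell from 0.823 and 0.883 CPM to 0.182 and 0.327 CPM (-1.70, SE 0.30, adjusted p = 0.000291). Pga5 fell from 1.61 and 1.42 CPM to 0 and 0.29 CPM, or from 39 and 37 reads to 0 and 8 (-3.30, SE 0.60, adjusted p = 0.000711), and this value was -8.07 without KI clone 48 and -2.35 without KI clone 27. Afp had 0 reads in both flox libraries and 11 and 7 in KI, at least 2.74-fold higher. Spink1 had 2 and 6 reads in flox and 0 in KI, and Ttr 2 and 0 reads in flox and 0 in KI, too few to give a fold difference. Amn (-0.60, SE 0.38), Rbp4 (0.86, SE 0.36, adjusted p = 0.0595) and Trf (0.62, SE 0.41) did not pass. Dab2 was no longer called without flox replicate 1 (adjusted p = 0.117) or KI clone 48 (0.0742). Rbp4 was called without KI clone 27 (0.0116) and with reads summed over its transcripts (0.0283).

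In trophectoderm 16 of the 22 uptake genes rose and 1 fell (median log2 fold change 0.50, against 0.01 over all genes), led by Ehd1, which recycles endosomes (309 to 601 CPM), clathrin heavy chain Cltc (522 to 818 CPM) and the lysosomal protease Ctsb (281 to 591 CPM). Among the 8 receptor genes related to Lrp2 that were tested, 3 rose and 3 fell. Vldlr rose from 8.74 to 44.7 CPM (log2 fold change 2.38, SE 0.14), whereas Sorl1 fell from 78.1 to 42.5 CPM. Of the cargo receptors and carriers, 7 of 11 rose and 3 fell, with the transferrin receptor Tfrc rising from 93.1 to 285 CPM and the retinoic acid carrier Crabp2 falling from 41.7 to 8.57 CPM. The plasma protein list had 1 of 7 higher, Gc, and the gastric and pancreatic list 1 of 1 lower, Pgc, another pepsinogen (0.895 to 0.145 CPM). At least 1 of those 7, Fgb, at 0.0823 and 0 CPM in flox and 0 in KI, passed the filter only through flox extraembryonic endoderm. The 7 are thus no base for a share in trophectoderm. The summed trophoblast markers moved with the genotype (3151 to 3223 CPM in flox, 5300 to 5483 CPM in KI), with 6 of 8 called higher and 1, Elf5, lower (17.5 to 1.23 CPM). The summed ESC markers moved too (669 to 680 CPM in flox, 229 to 314 CPM in KI). The part of these lists in the results was not tested.

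In the neural series Lrp2 had opposite differences at the 2 stages. At day 8 it was at 17.2 and 17.7 CPM in flox and 57.6 and 70.2 CPM in KI (log2 fold change 1.90, SE 0.16, adjusted p = 5.31e-06 by edgeR). At day 16 it was at 19.6 and 18.8 CPM in flox and 9.36 and 5.96 CPM in KI (-1.13, SE 0.17, adjusted p = 0.000198 by edgeR). The KI effect thus changed by -3.03 between the days (SE 0.23, adjusted p = 4.13e-06 for the difference). Megalin is known in the neuroepithelium as well as in the visceral endoderm. Dab2 was lower in KI on both days, from 14.9 and 15.1 CPM to 8.497 and 8.513 CPM at day 8 (-0.78, SE 0.22, adjusted p = 0.0275) and from 22.9 and 18.1 CPM to 9.27 and 4.98 CPM at day 16 (-1.34, SE 0.22, adjusted p = 0.000566). Its difference between days did not pass (adjusted p = 0.195).

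Amn was not called at day 8 (0.348 and 0.508 CPM in flox, 0.321 and 0.307 CPM in KI) and fell at day 16, from 7.30 and 9.64 CPM to 3.52 and 4.43 CPM (log2 fold change -0.88, SE 0.19, adjusted p = 0.00265 by edgeR). Cubn, its partner, stayed under 1 CPM on both days and was called on neither. Rbp4 was at 1.62 and 1.66 CPM in flox and 1.40 and 1.56 CPM in KI at day 8, and fell at day 16 from 2.25 and 2.56 CPM to 0.611 and 0.534 CPM (-1.86, SE 0.21, adjusted p = 2.80e-05 by edgeR). Its effect differed between the days by -1.75 (SE 0.29, adjusted p = 0.000812). Ttr and Trf fell at day 8 at low levels. Ttr had 34 and 42 reads in flox and 6 and 9 in KI (-2.26, SE 0.39, adjusted p = 0.00127). At day 16 Ttr had 1 and 0 reads in flox and 0 and 1 in KI, and was tested there because it passes the low-count filter through day 8. At day 8 Trf had 22 and 28 reads in flox and 11 and 4 in KI (-1.65, SE 0.49, adjusted p = 0.0334). Afp, Spink1 and Pga5 had at most 7 reads in any neural library and were below the low-count filter.

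By edgeR, 3 members fell and 1 rose at day 8, where 19.5% of 16439 genes were called, and 4 fell at day 16, where 46.9% were. The difference between days was called for 2 members, against 33.2% of genes. With line or clone as a block, the difference for Trf (1.56, SE 0.67, adjusted p = 0.0922) became 1.60 with an adjusted p of 0.05 and was called. The 2 flox libraries of day 8 were closer to each other than any other pair (chi-square per degree of freedom 1.5, against 2.76 to 54.83), so their replication may be overstated. At day 8 Dab2 lost its call with reads summed over its transcripts (-0.81, adjusted p = 0.0541 by edgeR) and with no low-count filter (-0.77, adjusted p = 0.051 by edgeR). It also lost it without any 1 of the 4 libraries, with log2 fold changes of -0.79 to -0.77. Trf lost its day 8 call without flox replicate 1, flox replicate 2 or KI clone 48. Its log2 fold change ran from -2.62 to -1.03 when 1 library was left out. DESeq2 called neither Ttr (adjusted p = 0.0549) nor Trf (0.151) at day 8. For the difference between days, Dab2 was called without day 16 KI clone 27 (0.0037) and Trf without day 8 KI clone 27 (0.0423).

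Other genes of the route moved in both directions. Of the uptake list, 4 of 22 fell at day 8, among them Myo6 (35.2 to 22.6 CPM) and Ctsb (161 to 125 CPM). At day 16, 11 rose and 4 fell, with Fcgrt, the neonatal Fc receptor, falling from 21.95 to 2.84 CPM and Cltc rising from 469 to 673 CPM. Lrp4, a relative of Lrp2, also rose at day 8 (68.1 to 94.3 CPM) and fell at day 16 (96.2 to 33.4 CPM), 1 of 9 family genes having risen at day 8, and 2 having risen and 4 fallen at day 16. Of 10 cargo receptors and carriers, 1 fell at day 8 (Tcn2, a vitamin B12 carrier, 26.6 to 19.6 CPM) and 6 fell at day 16, including Slc40a1 (13.98 to 3.89 CPM) and Tcn2 (15.0 to 5.91 CPM). Of 6 plasma protein genes, 2 fell on each day (Ambp and Serpinf2, then Itih2 and Hpx). The extraembryonic endoderm core markers moved with genotype, from 128 to 129 CPM in flox to 34.6 to 40.9 CPM in KI at day 8 and from 94.9 to 97.2 CPM to 14.7 to 25.3 CPM at day 16. Other marker lists moved with it too. Of 9 visceral endoderm markers 5 fell and 2 rose at day 8 (median -0.64), with sums of 18.3 to 18.7 CPM in flox and 16.1 to 17.0 CPM in KI, and at day 16 the sums were 3.80 to 4.38 CPM over both genotypes. Of 8 parietal endoderm markers 6 fell and 1 rose at day 8 and 7 fell at day 16. Of 6 choroid plexus markers tested, from a tissue known to make Ttr, 4 fell at day 8 (sums of 13.1 to 13.97 CPM in flox and 5.70 to 7.65 CPM in KI), and 3 fell and 2 rose at day 16. Of 5 neuron markers 4 fell at day 8 and 5 rose at day 16. Of 3 hepatocyte markers tested 2 fell at day 8 and 0 at day 16, and of 2 kidney proximal tubule markers tested 2 and 1 fell. Of 5 neural progenitor markers 2 fell and 1 rose at day 8, and 1 fell and 1 rose at day 16. The part of these lists in the members' values was not tested.

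**Figure D3:**
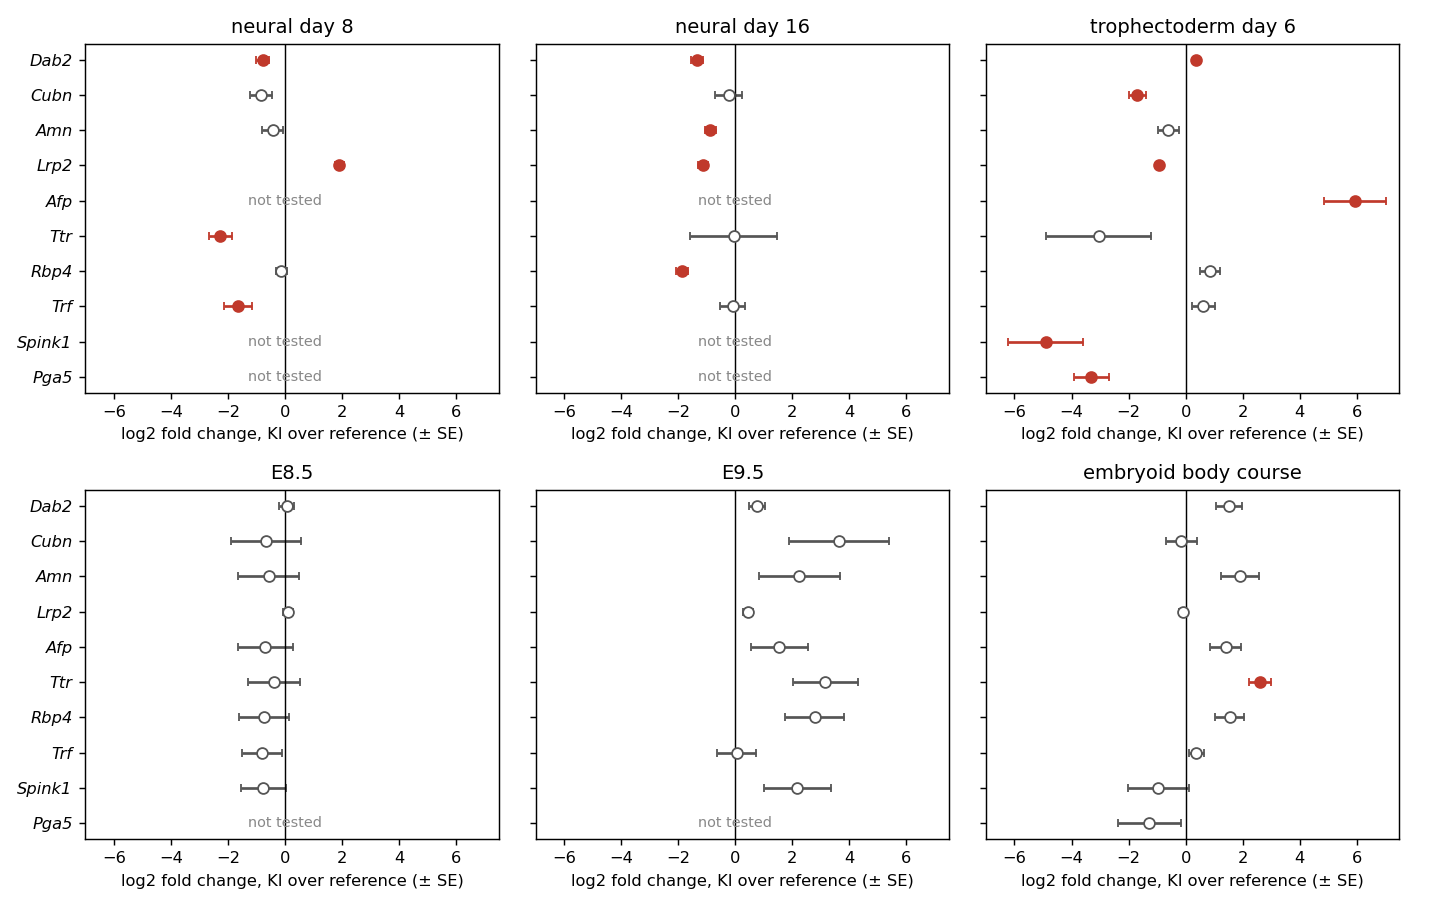
Fitted log2 fold change of each member, KI over flox or control, in 6 tested comparisons; bars are SE, filled red points have an edgeR adjusted p under 0.05, and "not tested" marks genes under the low-count filter. Lrp2 is above 0 at neural day 8 and below 0 at neural day 16. The trophectoderm values of Afp, Spink1 and Ttr come from groups with 0 reads, depend on the fit, and were tested only because these genes pass the filter in extraembryonic endoderm. In the embryoid body course Afp and Ttr pass the filter only through day 10.

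Whole embryos at E8.5 varied far more among themselves than between genotypes. Cubn was at 113, 7.56 and 31.1 CPM in control replicates 1, 2 and 3 and at 75.7, 2.14 and 15.97 CPM in KI replicates 1, 2 and 3. Amn was at 28.6, 2.83 and 9.96 CPM in controls and 20.2, 2.18 and 5.16 CPM in KI. In both groups replicate 1 was the highest and replicate 2 the lowest, and the ranges of the genotypes overlapped. Control and KI replicates of the same number share a title number, which the labels do not explain, and the fit of all embryos does not pair them. Of the carriers, Afp was at 63.5, 10.9 and 50.5 CPM in controls and 58.9, 2.50 and 15.7 CPM in KI. Rbp4 was at 68.3, 16.2 and 34.2 CPM in controls and 50.9, 3.09 and 17.0 CPM in KI. The same order held in Ttr (13.3 to 62.0 CPM in controls, 2.91 to 53.4 CPM in KI), Trf (4.13 to 17.6 and 2.00 to 11.7 CPM) and Spink1 (7.11 to 25.0 and 1.14 to 15.8 CPM). Dab2 (50.8 to 100 CPM in controls, 54.0 to 102 CPM in KI) and Lrp2 (72.5 to 116 and 78.0 to 107 CPM) varied least, and Pga5 had at most 10 reads. None of the 9 members tested was called by edgeR, also none at an unadjusted p under 0.05 and none by DESeq2, where edgeR called 5.46% of 15436 genes and DESeq2 7.54%; log2 fold changes ran from -0.80 (Trf, SE 0.69) to 0.11 (Lrp2, SE 0.16).

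At E9.5 most members were higher in KI embryos, without passing the test in the fit of all embryos. Cubn, Amn, Lrp2, Dab2, Ttr, Rbp4 and Spink1 were lower in every E9.5 control than in every E8.5 control, and Afp and Trf overlapped. Pga5 had 1 to 6 reads in E8.5 controls and 0 in E9.5 controls. Cubn was at 0.993, 0.965 and 0.805 CPM in controls and at 20.0, 12.2 and 2.34 CPM in KI (log2 fold change 3.64, SE 1.75, adjusted p = 0.16 by edgeR). Ttr was at 1.67, 2.19 and 1.52 CPM in controls and 27.5, 12.9 and 7.87 CPM in KI (3.16, SE 1.13, adjusted p = 0.0703 by edgeR). Rbp4 was at 2.86, 3.27 and 3.36 CPM in controls and 36.2, 15.8 and 12.7 CPM in KI (2.78, SE 1.02, adjusted p = 0.0752 by edgeR). In each of these every KI embryo lay above every control, with KI replicate 1 the highest. Afp was at 13.9, 22.6 and 19.6 CPM in controls and 84.2, 52.6 and 27.1 CPM in KI. Dab2 was at 38.2, 41.2 and 40.6 CPM in controls and 75.2, 62.1 and 67.1 CPM in KI (0.77, SE 0.27, adjusted p = 0.0641 by edgeR). Lrp2 was at 53.1, 55.4 and 61.4 CPM in controls and 82.4, 77.9 and 70.7 CPM in KI (0.44, SE 0.17, adjusted p = 0.0717 by edgeR). Spink1 was at 0.159, 0.297 and 0.537 CPM in controls and 2.20, 1.16 and 1.11 CPM in KI. Amn, at 0.437, 0.631 and 0.626 CPM in controls and 4.97, 2.92 and 0.177 CPM in KI, and Trf, at 5.96, 8.16 and 8.95 CPM in controls and 12.1, 4.72 and 6.98 CPM in KI, overlapped.

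None of these members passed edgeR's adjusted p of 0.05 at E9.5 in the fit of all 12 embryos, where 29.5% of genes were called; 4 had an unadjusted p under 0.05, and DESeq2 called 5 (29.3% of genes). In a fit of the 6 E9.5 embryos alone, 6 were called, where 29.2% of all genes were: Dab2 (adjusted p = 5.71e-05), Lrp2 (0.00267), Ttr (0.00742), Rbp4 (0.00759), Spink1 (0.00976) and Cubn (0.0404). Counted without a test, 7 of the 10 members had every KI embryo above every control, as did 22.6% of the genes tested. Without a block for title number, the KI effect was not called to differ between E8.5 and E9.5 for any member by edgeR, where 6.63% of genes were. An unadjusted p under 0.05 was found for 2 members, and DESeq2 called 1, against 9.69% of genes. Differences reached 4.31 for Cubn (SE 2.16, adjusted p = 0.299 by edgeR). With title number as a block, edgeR called 5 members for this difference, and the share of all genes called in that fit is not given here. The median over the 9 members tested was -0.67 at E8.5 and 2.18 at E9.5, against -0.01 and 0.01 over all genes.

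The visceral endoderm markers moved with the members across embryos. They summed to 375, 77.8 and 171 CPM in control and 296, 49.4 and 92.6 CPM in KI replicates 1, 2 and 3 at E8.5, and to 21.1, 20.3 and 28.6 CPM in control and 112, 62.3 and 31.9 CPM in KI at E9.5. The 8 members other than Dab2 and Lrp2 summed to 378, 62.1 and 174 CPM in control and 287, 15.95 and 88.4 CPM in KI at E8.5, and to 25.9, 38.1 and 35.4 CPM in control and 187, 102 and 58.6 CPM in KI at E9.5. All 9 markers were detected in every embryo group. Hepatocyte markers, of another tissue that makes these carriers, summed to 0.818 to 13.4 CPM at E8.5 and 4.69 to 11 CPM at E9.5. Their list shares Hnf4a with the visceral endoderm list, at means of 5.71 CPM in control and 4.37 CPM in KI at E8.5. Neuron markers were lower in KI at E9.5 (35.0 to 40.1 CPM against 131 to 197 CPM in controls). Extraembryonic endoderm core markers were higher in KI, with 3 of 7 called higher at E8.5 (258 to 301 CPM in controls, 349 to 408 CPM in KI) and 5 of 7 at E9.5 (177 to 198 CPM and 350.5 to 402 CPM). Trophoblast markers were also higher, with 2 of 8 called at E8.5 (619 to 769 CPM and 943 to 1137 CPM) and 5 of 8 at E9.5 (183 to 394 CPM and 610 to 641 CPM). The part of these lists in the members' values was not tested.

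**Figure D4:**
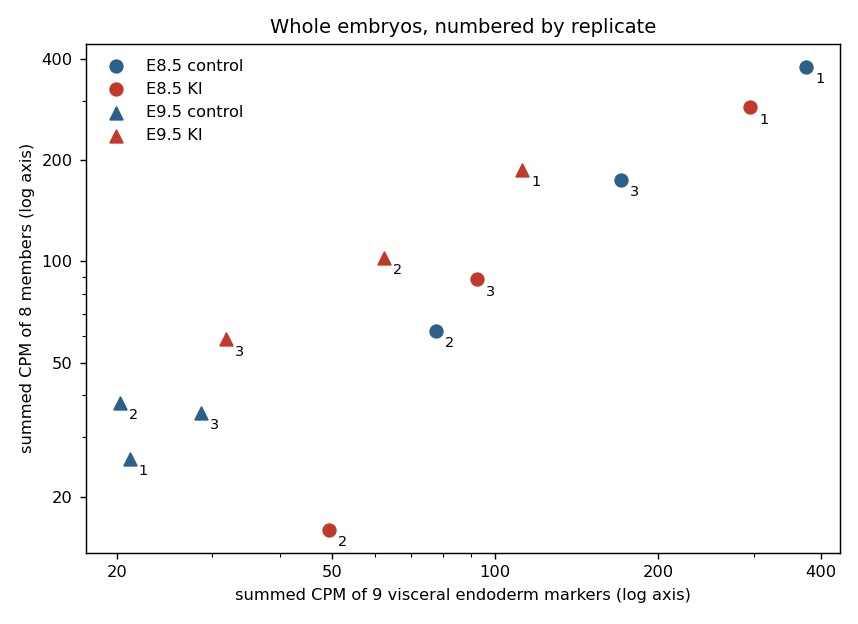
Each whole embryo by the summed CPM of 9 visceral endoderm markers (x) and of the 8 members other than Dab2 and Lrp2 (y), both on log axes; circles are E8.5, triangles E9.5, blue controls, red KI, and numbers give the replicate. The members' sum is lowest in KI replicate 2 at E8.5 (15.95 CPM) and highest in control replicate 1 at E8.5 (378 CPM), which also has the highest marker sum.

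Some other genes of the route were called in embryos. At E8.5, 3 of 10 cargo receptors and carriers fell: Stra6 (34.3 to 20.1 CPM), Crabp2 (228 to 158 CPM) and Tfrc (128 to 92.6 CPM). At E9.5, 4 of 10 carriers fell, among them Crabp2 (285 to 154 CPM), the iron transporter Slc11a2 (51.4 to 32.8 CPM) and Stra6 (32.8 to 22.3 CPM), and 2 rose. Of 22 uptake genes 6 rose and 4 fell at E9.5, with the lysosomal genes Ctsl (110 to 185 CPM) and Lamp2 (52.4 to 77.3 CPM) higher and Ehd1 (145 to 99.1 CPM) lower. Of 8 receptor genes related to Lrp2, 4 rose and 1 fell; Vldlr rose from 17.0 to 97.5 CPM (log2 fold change 2.51, SE 0.28, adjusted p = 0.00022 by edgeR), more than at E8.5 (difference 1.76, SE 0.38, adjusted p = 0.0296). Of 12 plasma protein genes 1 rose, Fga, the fibrinogen alpha chain (0.0265 to 0.79 CPM).

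In embryoid bodies, 6 members were high in KI at day 10: Dab2, Amn, Ttr, Rbp4, Spink1 and Pga5 were at least 2-fold above flox in both clones (0.5 CPM added), as were 3.50% of 14589 genes, and no member was lower (3.91% of genes were). Flox had 1 library a day, so single days carry no test. Dab2 had 88.4 CPM in flox and 538 and 426 CPM in clones 27 and 48. Rbp4 had 59.4 CPM in flox and 344 and 261 CPM in KI, and Ttr 10.0 CPM in flox and 74.2 and 64.6 CPM in KI. These are the highest group means of those genes in the study, whereas in extraembryonic endoderm KI was below flox for all 3. Pga5 had 1.67 CPM in flox and 20.5 and 23.3 CPM in KI, Spink1 11.6 CPM and 53.7 and 36.4 CPM, and Amn 0.582 CPM and 8.08 and 10.1 CPM. Afp (10.4 CPM in flox, 16.4 and 26.4 CPM in KI) and Cubn (2.60 CPM in flox, 3.73 and 4.54 CPM in KI) were higher by less than 2-fold in at least 1 clone. Lrp2 (126 CPM in flox, 124 and 91.4 CPM in KI) and Trf (2.91 CPM in flox, 2.66 and 2.83 CPM in KI) were not higher.

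At day 4 the proteolysis pair stood on the other side. Spink1 had 9.04 CPM in flox and 1.60 and 0.679 CPM in clones 27 and 48, and Pga5 5.16 CPM in flox and 1.14 and 0.407 CPM in KI. They were the 2 members at least 2-fold lower in both clones, as were 4.43% of 13843 genes, and no member was higher (1.45% of genes were). Cubn, at 0.970 CPM in flox and 0.320 and 0.317 CPM in KI, was under the minimum of 1 CPM for that count; its plain ratios were 3.03- and 3.06-fold lower. In ESCs Pga5 was also lower (3.23 CPM in flox, 0.721 and 0.631 CPM in KI), 1 member where 2.50% of 12934 genes were lower. Dab2 was the 1 member higher, at 0.582 CPM in flox and 3.73 and 2.27 CPM in KI, where 5.18% of genes were. Both ESC counts became 0 with 2 CPM added.

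Averaged over days 0, 4 and 10, the KI effect was called by edgeR for 1 of the 10 members, Ttr (log2 fold change 2.61, SE 0.39, adjusted p = 0.034), where 0.730% of 16567 genes were called. Ttr had at most 1 read in ESCs and at most 3 at day 4. It passed the low-count filter only through day 10, where it is high and flox had 1 library, so its value rests on that day. Afp, with 0 flox reads on days 0 and 4, also passed only through day 10. Dab2 (1.52, SE 0.46), Amn (1.92, SE 0.67), Afp (1.41, SE 0.54) and Rbp4 (1.55, SE 0.51) had an unadjusted p under 0.05 and an adjusted p of 0.177 to 0.258. Among the pathway lists, 1 gene was called, Lrp5 (0.43, SE 0.07, adjusted p = 0.0473 by edgeR). Of the marker lists, the neural progenitor gene Nes was called lower (-0.59, SE 0.09, adjusted p = 0.0415 by edgeR). The call of Ttr was lost without any 1 of the 6 KI libraries, with log2 fold changes of 2.39 to 2.63. Without the day 10 flox library, its log2 fold change was 0.39. Without day 4 flox, Dab2 (0.0182) and Rbp4 (0.03) were called, and without day 10 flox, Spink1 (-2.83, adjusted p = 0.0389) and Pga5 (-2.53, adjusted p = 0.0172). The visceral endoderm markers summed to 49.2 CPM in flox and 12.2 and 11.2 CPM in KI at day 4, and to 128 CPM in flox and 483 and 413 CPM in KI at day 10; their part in these differences was not tested.

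**Figure D5:**
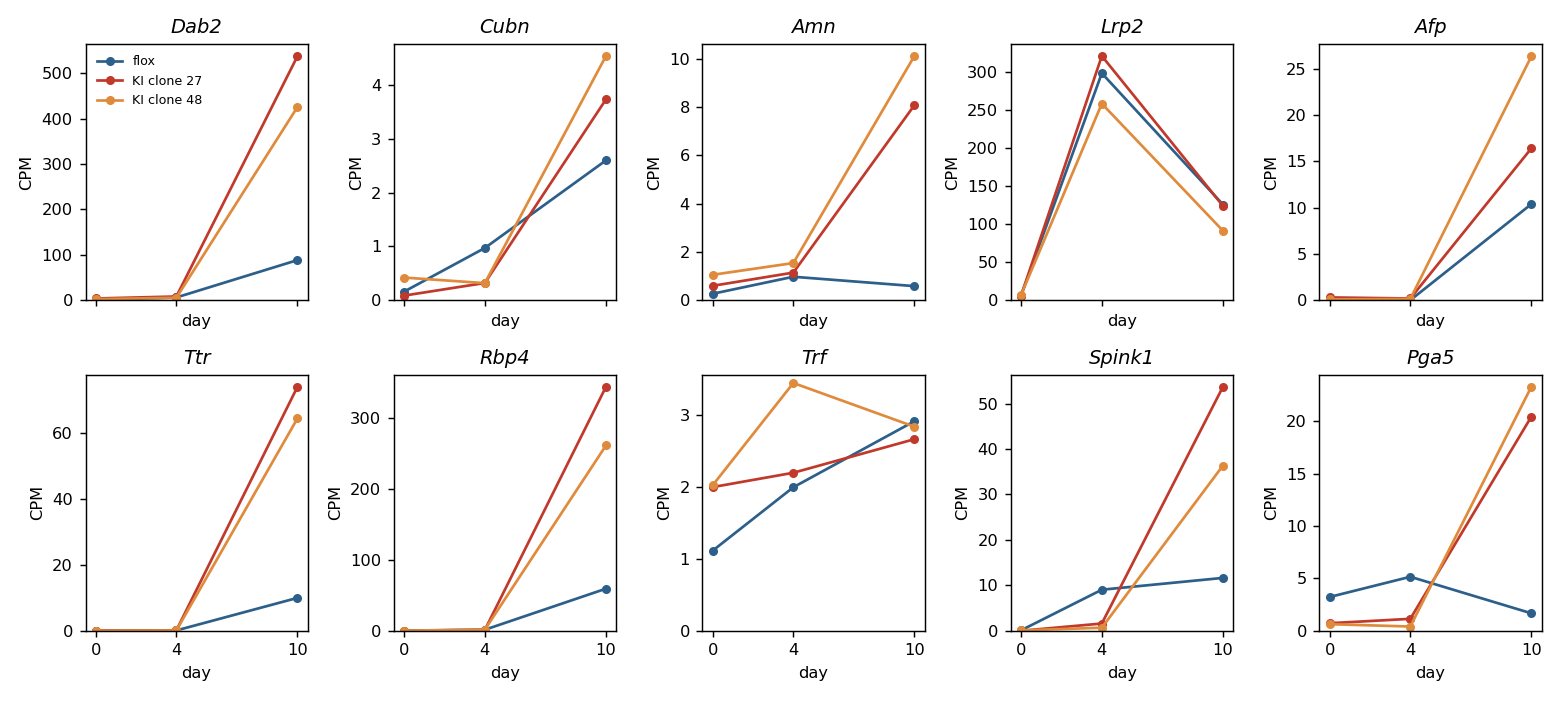
CPM of each member (y, linear axes that start at 0) on days 0, 4 and 10 of embryoid body culture (x) in the single flox library of each day (blue) and in KI clones 27 (red) and 48 (orange). Dab2, Ttr, Rbp4, Spink1, Pga5 and Amn diverge by day 10, and Lrp2 peaks at day 4 in all 3 series.

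Across the 18 group means of log2(CPM + 1), the 5 other genes most like the average pattern of the members were Ctsh (Pearson r 0.962), a lysosomal protease, Apob (0.939) and Apom (0.905), both apolipoproteins, Hkdc1 (0.906), a hexokinase relative, and Hnf4a (0.900). Ctsh, Apob and Hkdc1 had their highest mean in flox extraembryonic endoderm, and Apom and Hnf4a in KI embryoid bodies at day 10. They were chosen as the best of 14234 genes; by Spearman correlation none of these 5 was among the top 5. Ctsh, for example, had means of 63.9 CPM in flox and 2.24 CPM in KI extraembryonic endoderm, 7.53 CPM in flox and 27.8 CPM in KI embryoid bodies at day 10, and 2.47 CPM in controls and 4.61 CPM in KI embryos at E9.5. Against the mean of the other 9 members, r was highest for Ttr (0.885) and Spink1 (0.876), and lowest for Lrp2 (0.380) and Pga5 (0.470). The single gene most like each member was Lipa for Dab2 (0.932), Pla2g12b for Cubn (0.939), S100g for Amn (0.804), Tubb6 for Lrp2 (0.955), Serpinf2 for Afp (0.975), Apom for Ttr (0.987), Hand2 for Rbp4 (0.925), Fkbp1a for Trf (0.895), Hkdc1 for Spink1 (0.955) and AA986860 for Pga5 (0.906). No member had another member as its closest gene. These values describe group means that share libraries and lineages, and carry no test.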

How the data were processed

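Read counts and RPKM values per transcript were taken from the 37 RNA tables that the authors deposited (29082 transcripts each, per the file headers). Of the 100 samples of the series, the other 63 were not analysed here, among them 1 RNA library of neural day 8 cells whose title gives the line as Mll34DKO65. The submitters' processing notes name mm9, STAR, Bowtie2, bcl2fastq and SICER 1.1 with no role for each. The counting tool, the annotation and the use of strand are not given in the sources used here, so reads of Dab2, Cubn, Amn and Ttr cannot be told apart from those of lncRNA or pseudogene entries that overlap them. Libraries were poly(A) selected, per the labels' protocols; embryo, trophectoderm and extraembryonic endoderm samples are labelled total RNA and the others polyA RNA, and no test mixes them. Each gene is represented by its transcript with the highest read total, which for Dab2 and Rbp4 holds 27.8% and 50.4% of the reads summed over transcripts that share them.

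The counts were tested with edgeR 4.0.16 in R 4.3.3 (filterByExpr with 10 reads, TMM, robust glmQLFit and glmQLFTest) with Benjamini-Hochberg adjustment over all genes, in 1 fit each for the neural, trophectoderm with extraembryonic endoderm, embryo, and embryoid body libraries; DESeq2 1.42.0 was an alternative. The code was tested on simulated data. A gene is called at an adjusted p under 0.05, and standard errors come from the same fits. The members, lists and comparisons were chosen with earlier results of these data known. Named genes are the 10 members, the 3 genes of each pathway list with the smallest adjusted p, and the genes most like the members. In extraembryonic endoderm the fit's p-values only ordered the lists and are not reported. Outside this rule, Apoa1, Apoa4, Gata4, Gata6, Sox17, Nes, the trophoblast markers and, in extraembryonic endoderm, Gc were named after their values were seen. Some genes that this rule names are not reported here. KI replicates are clones and embryo replicates are single titles; nothing says that cultures were separate, so p-values measure the spread between these samples, which may be technical. Intervals of 3 reads for a count of 0 cover counting error only, since reads without molecular identifiers are not independent. Neural lines and clones are shared by both days, and their deviations from the group means correlated at 0.029 (flox) and 0.182 (KI).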

Additional observations from a re-analysis of the deposited data

Results flagged for a closer look

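The KI effect differed between neural days 8 and 16 for 2 members by a test of the difference: Lrp2 (-3.03, edgeR adjusted p = 4.13e-06) and Rbp4 (-1.75, edgeR adjusted p = 0.000812).

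In other cases every KI library lay on 1 side of flox in one setting and on the opposite side in another, and the difference was not tested. Between trophectoderm and extraembryonic endoderm, the log2 ratio of group means (0.5 CPM added) went from 0.32 to -2.32 for Dab2 (a difference of -2.64), from -0.95 to 0.27 for Lrp2 (1.22), from 0.73 to -5.20 for Afp (-5.93) and from 0.55 to -1.22 for Rbp4 (-1.77). Between embryoid body days 4 and 10, with 1 flox library a day, it went from -2.15 to 3.37 for Pga5 (5.52), from -2.54 to 1.91 for Spink1 (4.45), from -0.85 to 0.58 for Cubn (1.43) and from 0.41 to -0.07 for Trf (-0.48). Afp in trophectoderm and Cubn at day 4 rest on at most 19 reads a library.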

How the results depend on the processing

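The number of members called by edgeR was the same or within 1.5 times under scaling by relative log expression, reads summed over transcripts and no low-count filter in every comparison tested. It differed as follows. DESeq2 called 2 in place of 4 at neural day 8, 5 in place of 0 at E9.5, 1 in place of 0 for E9.5 minus E8.5 and 2 in place of 1 in the embryoid body course; the fit of the E9.5 embryos alone called 6. Leaving out 1 library gave 2 to 3 at neural day 8 and 0 to 3 in the embryoid body course, and clone 27 or clone 48 alone gave 0 there. With 2 CPM added, no member passed 2-fold in ESCs, in place of 1 higher and 1 lower. The causes were not tested. Where leaving out a library left 1 in a group, that library is assumed to vary like the other groups.

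Embryos share title numbers, which the labels do not explain; leaving out those of 1 number was chosen after seeing the data. With the title number as a replicate block, 6 members were called at E9.5 (Cubn, Dab2, Lrp2, Rbp4, Spink1 and Ttr) and 5 for E9.5 minus E8.5, none at E8.5, and 1321 genes in place of 843 at E8.5. The shares of all genes called with this block at E9.5 and for the difference are not given here, so nothing is read from the counts of 6 and 5. Every E8.5 embryo correlated best with the one of its number (0.234, 0.251 and 0.076), not all over 0.1; at E9.5 correlations within a number ran from -0.016 to 0.13. Without E9.5 embryos 1 and 2 of both groups, which share a number (the lone embryo left in each group is assumed to vary like the others), 1612 genes were called at E9.5 and 361 for the difference; Amn was -1.82 at E9.5 and -1.26 for the difference, and Trf -0.38. Without the E8.5 pair numbered as replicate 1, 278 genes were called at E8.5 and 557 for the difference, and without the pair of replicate 3, 162 and 512, with Lrp2 at -0.01 at E8.5. With line or clone as a replicate block, Trf was 1.60 for neural day 16 minus day 8; no other member's call changed.

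Over all genes, a 2-fold minimum left 1330 of 3202 calls at neural day 8, 2008 of 7704 at day 16, 2189 of 5450 for their difference, 2545 of 7904 in trophectoderm, 214 of 843 at E8.5, 920 of 4560 at E9.5 and 319 of 1024 for their difference. DESeq2 called 778 in place of 121 in the embryoid body course, clone 27 alone 0 and clone 48 alone 1. Leaving out 1 library gave 1896 to 2362 at neural day 8, 3621 to 6038 for the neural difference, 363 to 755 at E8.5, 607 to 1175 for the embryo difference and 26 to 332 in the embryoid body course.

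Members that were not called changed sign in some cases when 1 library was left out. At neural day 16 Cubn ran from -0.76 to 0.20 and Trf from -0.51 to 0.37. Ttr ran from -2.31 to 2.26 there, from -0.06 to 4.52 for the neural difference and from -3.98 to 0.00 in trophectoderm, but with at most 1 read a library at neural day 16 and at most 2 in trophectoderm, these values show nothing about it. At E8.5 Dab2 ran from -0.20 to 0.31, Cubn from -2.47 to 0.69, Amn from -1.90 to 0.52, Lrp2 from -0.02 to 0.32 and Ttr from -1.49 to 0.34, and at E9.5 Trf from -0.41 to 0.31. In the embryoid body course Cubn ran from -0.82 to 0.64 (0.17 with clone 48 alone), Rbp4 from -0.12 to 2.23, Spink1 from -2.83 to 1.77 and Pga5 from -2.53 to 0.08. Depth limits what can be shown for Afp, Spink1 and Pga5 in neural libraries, for Ttr at neural day 16, for Afp, Spink1 and Ttr in trophectoderm and for Pga5 in embryos. It also limits Afp, Spink1 and Ttr in ESCs, and Afp and Ttr in embryoid bodies at day 4.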
